A study of Mus musculus with 8 samples.

Results

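The genes described here are 46 genes of the skeletal muscle sarcomere, grouped as 16 of the thin filament, 11 of the thick filament, 15 of the Z-disc and 4 of the M-band. They were chosen by symbol from the 25655 gene rows of a count table of mouse gastrocnemius, and each symbol matched 1 row. The thick filament group includes Mylk2 and Mylk4, of the myosin light chain kinase family, and the myosin chaperone Unc45b, which are not parts of the filament itself. The 8 libraries fall into 2 groups, both from wild-type male mice sampled at day 4. The 3 sepsis libraries came from mice given cecal slurry, which is gut content injected to cause abdominal infection. The 5 control libraries came from mice given 10% glycerol. The study addressed how sepsis alters gene expression in skeletal muscle. Ages are not given in the labels used here, and nothing in them says that each library came from a separate animal, so the p-values measure the spread between these samples only.

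The sarcomere is the contractile unit of striated muscle. Thick filaments of myosin pull on thin filaments of actin, which are anchored at the Z-disc by alpha-actinin, while the M-band ties the thick filaments together at the sarcomere's centre. Calcium binding to troponin shifts tropomyosin along the thin filament and frees the sites at which myosin binds. Fast and slow fibres use different isoforms of many of these proteins, and the mouse gastrocnemius is made mostly of fast fibres.

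Libraries held 3086277 to 4016329 reads assigned to genes. Because the 3′ library method reads close to 1 end of each transcript, counts were not divided by transcript length. Levels are given as CPM, counts per 1000000 reads after scaling by TMM factors, a correction for differences in library composition. Mitochondrial transcripts took 14.5% ± 2.19 of the reads in sepsis (SD, n = 3) and 23.6% ± 1.89 in controls (SD, n = 5). The TMM scaling puts the median log2 fold change of the 9810 genes tested at 0.01, against 0.43 with library totals alone. All changes below are relative to the TMM centre. The summed level of 8 marker genes of muscle fibres was 39130 to 60427 CPM in sepsis and 76743 to 90897 CPM in controls, and 6 of the 8 fell. Of 7 macrophage markers tested, 5 rose, with sums of 306 to 510 CPM in sepsis and 75.2 to 185 CPM in controls. Of 6 neutrophil markers 3 were tested, and all 3 rose. The 6 summed to 60.6 to 140 CPM in sepsis and 0 to 1.27 CPM in controls. Most of that was S100a8 and S100a9, which averaged 61.9 and 38.8 CPM in sepsis. Retnlg had 66 reads over the septic libraries and Ly6g had 2, and both had 0 in controls. Csf3r had 5 reads over the septic libraries and 3 over the controls. All 6 fibroblast markers fell, with sums of 278 to 413 CPM in sepsis and 1282 to 2783 CPM in controls. The part of these shifts in the results below was not tested. In bulk tissue, fewer muscle fibres and less RNA per fibre cannot be told apart. The septic libraries also differed more among themselves than the controls did, with a chi-square per degree of freedom of 11.9 to 29.4 between pairs of septic libraries and 2.09 to 7.31 between pairs of control libraries. Sepsis library 3 stood apart in several of the sarcomere genes, and values without it are given where they matter.

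Sarcomere transcripts were mostly lower in sepsis. Of the 46 genes, all of which were abundant enough to be tested, 27 fell and 4 rose at an adjusted p under 0.05 in edgeR's quasi-likelihood test, and 15 did not pass. Over all genes tested, 50.4% were called, 25.2% lower and 25.2% higher. Under library totals alone, 24 of the 46 fell and 8 rose, beside 1387 of all genes lower and 4256 higher. The 4 that rose were Lmod2, Actn2, Myoz2 and Pdlim5. At least 2-fold falls were seen in 18 of the 46 genes, against 14.2% of all genes tested, and 1 called gene, Lmod2, rose at least 2-fold, against 11.8% of all genes tested. The septic and control libraries did not overlap in 28 of the 46 genes, with sepsis below in 26 and above in 2, against 47.5% of all genes tested in either direction. The median log2 fold change was -0.85. Together the 46 genes took 13.8% ± 1.08 of all reads in sepsis (SD, n = 3) and 22.2% ± 1.11 in controls (SD, n = 5). With mitochondrial reads left out, their share was 16.2% ± 1.40 in sepsis and 29.0% ± 0.764 in controls.

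The genes were also grouped by fibre type and by place. The counts stand beside 25.2% of all genes tested called lower and 25.2% called higher. All 10 genes grouped as fast-fibre isoforms fell, with a median log2 fold change of -1.42. Myom2, a gene of fast fibres that was not placed in that group, did not pass. Of 8 slow-fibre isoforms, 2 fell, 1 rose and 5 did not pass, with a median of -0.09, or 0.32 under library totals alone. By place, 10 of 16 thin filament genes fell and 1 rose, with a median of -0.81. In the thick filament 9 of 11 fell and none rose, with a median of -1.01, and Mybpc1 and Mylk2, which did not pass, were at 0.12 and 0.16. The Z-disc was mixed, with 7 of 15 lower, 3 higher and a median of -0.41. In the M-band 1 of 4 fell, and the median was also -0.41. Under library totals alone the medians were 0.019 for the Z-disc and 0.0089 for the M-band, and without sepsis library 3 they were 0.0064 and -0.15.

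**Figure D1:**
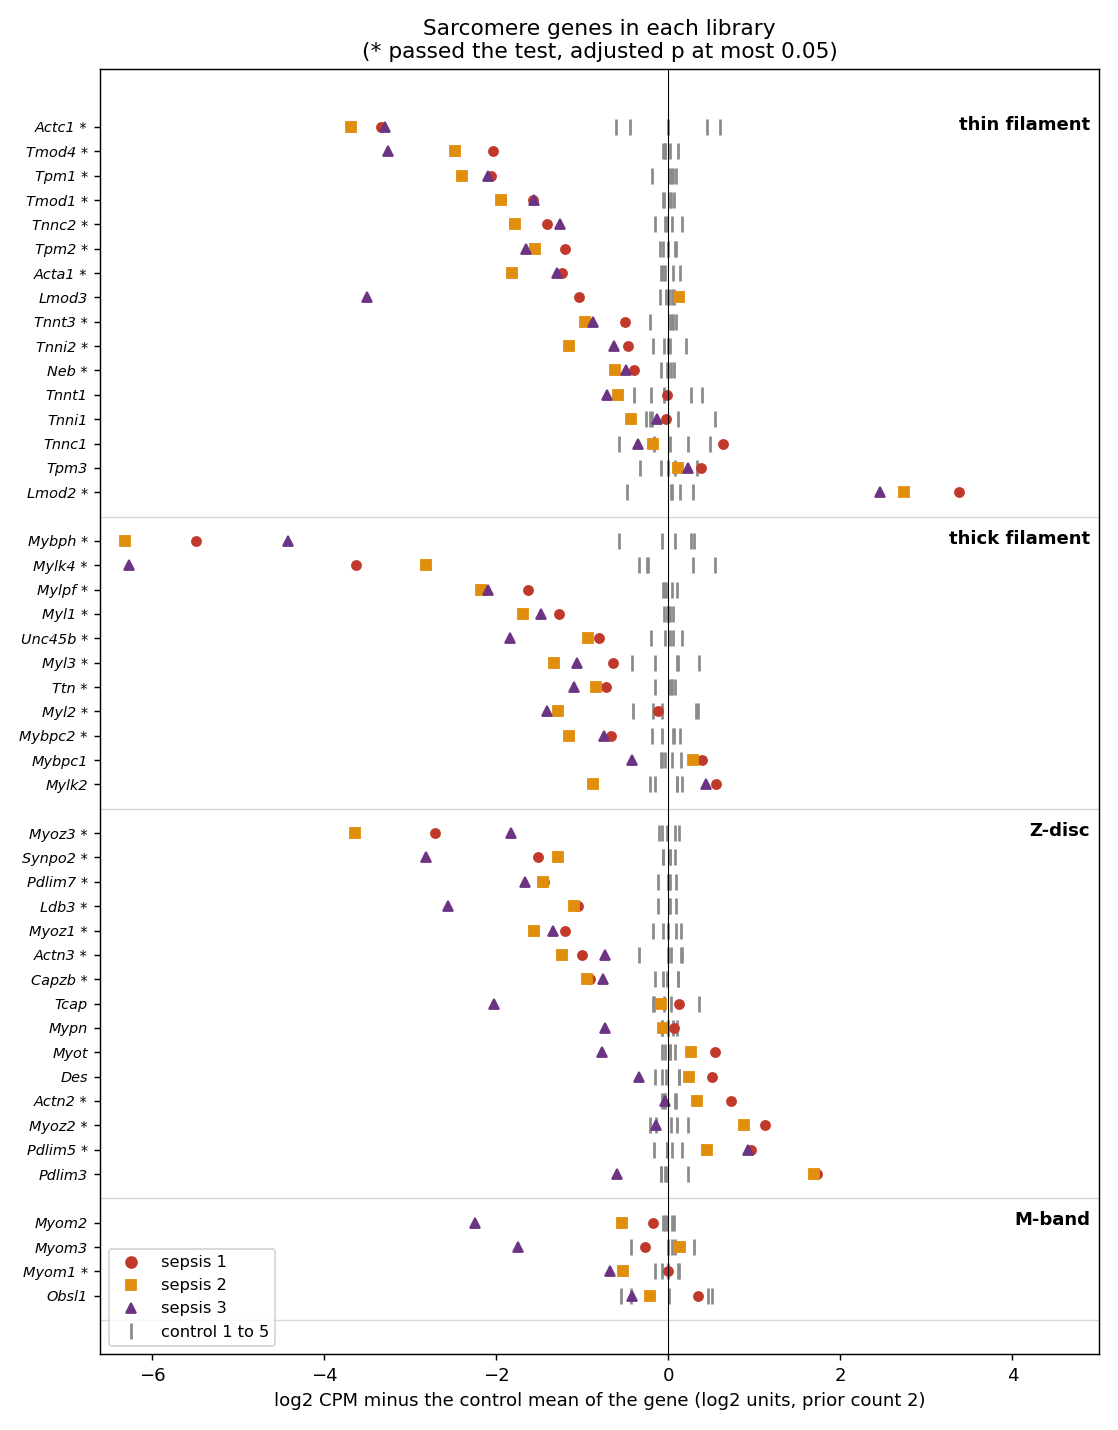
The 46 genes on the log2 scale, sepsis relative to control, grouped by place in the sarcomere. Points left of 0 are lower in sepsis: 27 genes fell, 4 rose and 15 did not pass the test.

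Promoter sequence is shown for the genes at the ends of this range, 1 that rose steeply (Lmod2) and 2 that fell most steeply (Mybph and Mylk4), and for the sarcomeric actins (Actc1 and Acta1), which both fell. Each line gives 150 bases ending at the annotated start of transcription, 5′ to 3′ on the gene's strand, from RefSeq on build GRCm38.p6. Capitals mark matches to short motifs that muscle regulators are known to bind, and to TATAAA, searched on both strands. These are the E-box CANNTG, bound by MyoD family factors, MCAT (CATTCC), bound by TEAD factors, the MEF2 element, the CArG box, bound by serum response factor, and TATAAA, the TATA box. A MEF2 element and TATAAA can overlap.
Lmod2, chr6:24597621-24597770, plus strand: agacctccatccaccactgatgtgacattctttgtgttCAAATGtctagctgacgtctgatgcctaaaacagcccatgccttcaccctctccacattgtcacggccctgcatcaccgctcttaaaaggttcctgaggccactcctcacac
Mybph, chr1:134193298-134193447, plus strand: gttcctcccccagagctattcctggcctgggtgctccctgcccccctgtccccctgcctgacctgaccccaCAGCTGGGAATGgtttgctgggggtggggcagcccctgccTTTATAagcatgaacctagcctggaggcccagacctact
Mylk4, chr13:32783965-32784114, minus strand: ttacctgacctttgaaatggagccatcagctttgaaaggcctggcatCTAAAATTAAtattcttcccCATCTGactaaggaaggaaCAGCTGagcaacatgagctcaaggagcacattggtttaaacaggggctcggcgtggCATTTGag
Actc1, chr2:114052876-114053025, minus strand: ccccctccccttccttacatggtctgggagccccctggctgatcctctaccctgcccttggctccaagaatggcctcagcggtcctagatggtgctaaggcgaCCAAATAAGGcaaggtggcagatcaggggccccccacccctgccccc
Acta1, chr8:123894776-123894925, minus strand: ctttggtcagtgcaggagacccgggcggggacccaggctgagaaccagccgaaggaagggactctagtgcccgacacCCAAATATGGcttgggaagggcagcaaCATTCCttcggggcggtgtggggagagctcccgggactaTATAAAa

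Both actin promoters carry a CArG box in this stretch, and Acta1 also has an MCAT and a TATA match. Mybph has an E-box directly followed by an MCAT match on the other strand. Lmod2, which rose, shows 1 E-box and none of the other motifs in this window. Promoters were matched for 35 of the 46 genes, giving 40 windows of 250 bases upstream of a start. A CArG box was present in 6 of 40 windows (15%), against 1.47% of 32851 windows of the same length for all genes. All 6 lay among the 23 windows of genes that fell. A MEF2 element was in 12.5% of the sarcomere windows and 2.92% of all windows, MCAT in 25% and 12.6%, TATAAA in 20% and 12.4%, and an E-box in 85% and 66.2%. The other motifs were not confined to genes that fell. In windows of genes that fell, rose and did not pass, an E-box was in 18 of 23, 4 of 5 and 12 of 12. In the same order, MCAT was in 7, 0 and 3 windows, TATAAA in 5, 1 and 2, and MEF2 in 3, 1 and 1. These matches are descriptions of the sequence only.

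In the thin filament, the fast members of the troponin complex fell while their slow counterparts did not pass the test. CPM values are listed in the order of the library numbers, sepsis 1 to 3 and then control 1 to 5. Tnnc2, the fast calcium-binding subunit, stood at 8782, 6803 and 9779 CPM in sepsis, against 20994, 23084, 22675, 24067 and 26112 CPM in controls. The log2 fold change was -1.47 ± 0.13 (SE, adjusted p = 1.44e-06), and every septic library was far below every control. The slow subunit Tnnc1, also the cardiac one, had 88.0, 49.8 and 43.8 CPM in sepsis, against 56.9, 50.2, 78.9, 66.2 and 37.6 CPM in controls. Those groups overlapped, with a log2 fold change of 0.06 ± 0.27 (SE, adjusted p = 0.874). Among the inhibitory subunits, fast Tnni2 had 9364, 5849 and 8386 CPM in sepsis, against 11498, 12901, 12564, 13178 and 14913 CPM in controls. It fell by 0.73 ± 0.15 on the log2 scale (SE, adjusted p = 0.00101), with the groups apart. Slow Tnni1 had 23.9, 17.9 and 22.1 CPM in sepsis, against 26.4, 21.0, 35.8, 20.3 and 21.3 CPM in controls, which overlap. Its log2 fold change of -0.24 ± 0.21 (SE, adjusted p = 0.358) became 0.18 under library totals alone.

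The tropomyosin-binding subunits gave the same ordering. Fast Tnnt3 had 18869.8, 13712 and 14561 CPM in sepsis, against 23110.4, 27121, 27581, 27856 and 28349 CPM in controls. It fell by 0.77 ± 0.12 on the log2 scale (SE, adjusted p = 0.000184), and the lowest control, library 1, was still above the highest septic library. Slow Tnnt1 had 119, 80.9 and 73.5 CPM in sepsis, against 117, 105, 159, 145 and 91.4 CPM in controls. Its groups overlapped, and its log2 fold change was -0.44 ± 0.21 (SE, adjusted p = 0.0955). Without sepsis library 1 this became -0.68 with an adjusted p of 0.0155, and over 15 alternative settings the adjusted p ranged from 0.0155 to 0.909. Of the troponin genes, Tnnc2 thus fell 2.77-fold, while Tnni2 and Tnnt3 fell 1.65-fold and 1.71-fold.

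Tropomyosins, the coiled-coil strands that cover the myosin-binding sites, were also split by isoform. Tpm1, the main fast-fibre form, had 7273, 5734 and 7045 CPM in sepsis, against 26597, 30432, 30836, 31285 and 32290.2 CPM in controls. It fell 4.53-fold, a log2 fold change of -2.18 ± 0.12 (SE, adjusted p = 2.27e-08), and the septic libraries lay close together. Tpm3, the slow-fibre form, had 169, 142 and 153 CPM in sepsis, against 130.5, 123, 164, 138 and 104 CPM in controls. The groups overlapped, with a log2 fold change of 0.23 ± 0.14 (SE, adjusted p = 0.188). A related row, Tpm3-rs7, held 24 reads over all libraries. Tpm2, the beta form found in both fibre types, fell 2.75-fold, averaging 1891 ± 322 CPM in sepsis (SD, n = 3) and 5192 ± 305 CPM in controls (SD, n = 5).

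Both sarcomeric actins fell, the skeletal form 2.69-fold and the cardiac form 11.5-fold. Acta1, skeletal muscle alpha-actin, had 12088, 8103 and 11662 CPM in sepsis, against 27310.2, 26883, 27738, 29510.3 and 31214 CPM in controls. That is a log2 fold change of -1.43 ± 0.14 (SE, adjusted p = 2.47e-06), with wide separation. Actc1, the cardiac alpha-actin that is expressed in developing muscle and at low level in the adult, had 32.4, 25.4 and 33.6 CPM in sepsis, against 455, 246, 219, 506 and 333 CPM in controls. The log2 fold change was -3.53 ± 0.33 (SE, adjusted p = 1.97e-05). Control values ranged more widely than septic ones, and all lay above them.

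Genes that set the length of thin filaments moved in opposite directions. Lmod2, leiomodin-2, which promotes actin addition at the pointed end, had 1241, 791 and 652 CPM in sepsis, against 144, 84.4, 130.1, 122 and 121 CPM in controls. Its log2 fold change of 2.90 ± 0.21 (SE, adjusted p = 1.77e-06) was a 7.44-fold rise, and the lowest septic library was well above the highest control. The pointed-end caps fell: Tmod4, the tropomodulin of skeletal muscle, had 80.1, 58.8 and 34.2 CPM in sepsis, against 323, 358, 335, 318 and 322 CPM in controls. It fell by 2.52 ± 0.22 on the log2 scale (SE, adjusted p = 4.22e-06), and sepsis library 3 was the lowest. Tmod1 fell 3.23-fold, averaging 52.9 ± 7.65 CPM in sepsis (SD, n = 3) and 171 ± 6.70 CPM in controls (SD, n = 5). Tmod1 overlaps Tstd2 on the opposite strand, and the strand setting of the counting is not given in the sources used here, so its reads are uncertain.

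Lmod3, the leiomodin lost in a form of human nemaline myopathy, did not follow Lmod2. It had 65.7, 148 and 11.4 CPM in sepsis, against 136, 132, 127, 142 and 139.6 CPM in controls. The septic libraries lay on both sides of the controls and differed by more than the controls did, with a log2 fold change of -0.85 ± 0.64 (SE, adjusted p = 0.309). It passed as lower without sepsis library 2, at -1.83 with an adjusted p of 0.0434, and with limma voom, at -1.25 with an adjusted p of 0.0226, while the other settings gave up to 0.649. Neb, nebulin, the giant protein that runs along the thin filament, averaged 11929 ± 927 CPM in sepsis (SD, n = 3) and 16853 ± 668 CPM in controls (SD, n = 5). Its fall of 0.50 ± 0.10 on the log2 scale (SE, adjusted p = 0.000716) did not pass under library totals alone, at -0.08, nor under the replicate block, at -0.48 (adjusted p from 2.46e-05 to 0.325 over the settings).

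In the thick filament, both fast and both slow myosin light chains fell. Mylpf, the fast regulatory light chain, had 4067, 2795 and 2960.0 CPM in sepsis, against 12170.2, 12037, 12938, 12345 and 13570.0 CPM in controls. It gave a log2 fold change of -1.95 ± 0.13 (SE, adjusted p = 1.66e-07). Myl2, the slow and ventricular counterpart, had 72.6, 32.1 and 29.5 CPM in sepsis, against 59.7, 75, 99.4, 101 and 69.8 CPM in controls. Sepsis library 1 lay among the controls and the others below them. The log2 fold change of Myl2, -0.86 ± 0.31 (SE), passed narrowly with an adjusted p of 0.0447 and did not pass without sepsis library 3, at -0.64 with an adjusted p of 0.182. Over the 15 settings its adjusted p ranged from 0.000271 to 0.197, and 9 of them ended the call.

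Myl1, the fast essential light chain, had 4698, 3531 and 4085 CPM in sepsis, against 11822, 10977, 11353, 11219.6 and 11507 CPM in controls, a log2 fold change of -1.47 ± 0.11 (SE, adjusted p = 3.47e-07). Myl3, the slow and ventricular essential chain, had 183, 113 and 137 CPM in sepsis, against 212, 256, 307, 365 and 309 CPM in controls. It was the slow isoform with the largest fall, at -1.01 ± 0.19 (SE, adjusted p = 0.000989). In both genes the septic libraries all lay below the controls.

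Mybph, myosin-binding protein H, gave the steepest fall of the 46. It had 0.798, 0.210 and 2.28 CPM in sepsis, against 63.6, 57.4, 72.6, 74.5 and 40.5 CPM in controls. The log2 fold change was -5.78 ± 0.41 (SE, adjusted p = 1.01e-06), and the septic values rest on 3, 1 and 10 reads. Without sepsis library 3 it was -6.93, and over all leave-outs of 1 library it ranged from -6.93 to -5.24. Its locus overlaps Adora1 on the opposite strand, so its reads are uncertain. Mylk4, a myosin light chain kinase family member, had 93.6, 165 and 14.6 CPM in sepsis, against 1428, 919.7, 989.6, 988 and 1698 CPM in controls. All septic libraries lay far below the controls but were spread widely among themselves, and the log2 fold change of -3.72 carried an SE of 0.75 (adjusted p = 0.00549). It was -4.49 without sepsis library 2 and -3.22 without sepsis library 3. Mylk2, the kinase that phosphorylates the regulatory light chain in skeletal muscle, had 447, 165 and 412 CPM in sepsis and 262 to 339 CPM in controls. Its septic values lay on both sides of the controls, at 0.16 ± 0.28 (log2, SE, adjusted p = 0.661). Without sepsis library 2 Mylk2 passed as higher, at 0.50 with an adjusted p of 0.0037, the lowest over the settings, which reached 0.999.

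Myosin-binding protein C, which decorates the thick filament and modulates cross-bridges, divided by isoform. Fast Mybpc2 had 1592, 1134 and 1504 CPM in sepsis, against 2213, 2409, 2626, 2643 and 2782 CPM in controls. It fell by 0.85 ± 0.13 on the log2 scale (SE, adjusted p = 0.000121), with the groups apart. Slow Mybpc1 had 538, 501 and 305 CPM in sepsis, against 388, 391, 425, 399 and 455 CPM in controls. Sepsis libraries 1 and 2 were above all controls and library 3 below them, giving 0.12 ± 0.16 (log2, SE, adjusted p = 0.537), or 0.34 with an adjusted p of 0.0110 without library 3, in a range of 0.0110 to 0.873 over the settings. Ttn, titin, the elastic giant that spans from Z-disc to M-band, averaged 32764 ± 4236 CPM in sepsis (SD, n = 3) and 60115 ± 3602 CPM in controls (SD, n = 5), a 1.83-fold fall. Unc45b, the chaperone that folds myosin heads, fell 2.20-fold, with 53.7 to 110.4 CPM in sepsis and 167 to 215 CPM in controls.

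The Z-disc held 3 of the 4 rises, which were 3 of its 15 genes, beside 25.2% of all genes tested called higher. Pdlim5, a PDZ and LIM domain scaffold that binds alpha-actinin, had 543, 383 and 529 CPM in sepsis, against 313, 248, 275, 277 and 287 CPM in controls. Its log2 fold change was 0.79 ± 0.13 (SE, adjusted p = 0.000178), and every septic library was above every control. Actn2, the alpha-actinin of all fibres, had 279, 212 and 163 CPM in sepsis, against 178, 162, 177, 159 and 163 CPM in controls. Sepsis libraries 1 and 2 were above the controls and library 3 was among them. The rise of Actn2, 0.38 ± 0.15 (log2, SE, adjusted p = 0.0452), did not pass without sepsis library 1, at 0.15 with an adjusted p of 0.327. Of the 15 settings 10 ended the call, with adjusted p from 0.000294 to 0.327. Actn3, the fast-fibre alpha-actinin, had 1274, 1085 and 1528 CPM in sepsis, against 2014, 2540.0, 2816, 2608 and 2851 CPM in controls, a log2 fold change of -0.99 ± 0.14 (SE, adjusted p = 7.81e-05) with the groups apart.

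Calsarcins, which link alpha-actinin and filamin to calcineurin, also divided by fibre type. Slow Myoz2 had 145, 123 and 60.3 CPM in sepsis, against 68.0, 57.1, 59.9, 77.7 and 71.4 CPM in controls. Again sepsis libraries 1 and 2 were above the controls and library 3 was among them. The log2 fold change was 0.71 ± 0.23 (SE, adjusted p = 0.0268), and 0.45 with an adjusted p of 0.133 without sepsis library 1, in a range of 2.07e-05 to 0.133 over the settings, 4 of which ended the call. Fast Myoz1 had 628, 489 and 572 CPM in sepsis, against 1281, 1439, 1603, 1381 and 1542 CPM in controls, a log2 fold change of -1.36 ± 0.12 (SE, adjusted p = 1.35e-06). Myoz3, the other fast calsarcin, had 10.9, 5.46 and 20.5 CPM in sepsis, against 73.6, 81.6, 69.0, 78.5 and 71.1 CPM in controls. It fell 6.08-fold, at -2.60 ± 0.32 (log2, SE, adjusted p = 7.21e-05), and all septic libraries of both fast genes lay below the controls. Without sepsis library 3 Myoz3 was at -3.22.

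Scaffold and capping genes of the Z-disc fell in part. Synpo2, myopodin, an actin-bundling protein also made in smooth muscle, had 111, 131 and 44.7 CPM in sepsis, against 306, 337, 324, 323 and 306 CPM in controls. It had a log2 fold change of -1.74 ± 0.29 (SE, adjusted p = 0.000814). Pdlim7, enigma, had 100.01, 99.4 and 85.6 CPM in sepsis, against 273, 275, 252, 277 and 290.3 CPM in controls, and fell by 1.52 ± 0.11 on the log2 scale (SE, adjusted p = 2.31e-07). In both genes the groups were far apart. Of 5 smooth muscle markers tested 3 fell, with sums of 98.7 to 102 CPM in sepsis and 169 to 235 CPM in controls, and their part in these genes was not tested. Ldb3, the ZASP protein whose variants cause human myofibrillar myopathy, fell 2.69-fold, averaging 453 ± 215 CPM in sepsis (SD, n = 3) and 1217 ± 62.1 CPM in controls (SD, n = 5). Capzb, the barbed-end capping subunit, fell 1.83-fold, with 199.99 to 227 CPM in sepsis and 347 to 417 CPM in controls.

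The remaining Z-disc genes did not pass, and sepsis library 3 was the lowest septic library in each. Pdlim3, the actinin-associated LIM protein, had 386, 376 and 76.9 CPM in sepsis, against 136, 113, 109.6, 109.6 and 114 CPM in controls. Its log2 fold change of 1.26 ± 0.45 (SE) missed the threshold with an adjusted p of 0.0508, and without sepsis library 3 it was 1.71 with an adjusted p of 1.06e-08. It passed as higher in 5 of the 15 settings, which also include library totals alone, DESeq2's size factors, DESeq2 and limma voom, and the adjusted p reached 0.190 in the others. Tcap, telethonin, which caps titin at the Z-disc, had 2482, 2145 and 559 CPM in sepsis and 2012 to 2910.1 CPM in controls, with a log2 fold change of -0.41 ± 0.43 (SE, adjusted p = 0.470). Library 3 alone was outside the control range. Myot, myotilin, was at 0.11 ± 0.23 (log2, SE, adjusted p = 0.711), and Des, the intermediate filament desmin, at 0.17 ± 0.16 (log2, SE, adjusted p = 0.384). Without sepsis library 3 both passed as higher, at 0.41 and 0.37 with adjusted p of 0.00377 and 0.0121. Des also passed under library totals alone, at 0.59 with an adjusted p of 0.00657, and other settings gave up to 0.973 for Myot and 0.867 for Des. Mypn, myopalladin, had 313, 286 and 179 CPM in sepsis and 282 to 319 CPM in controls, at -0.20 ± 0.15 (log2, SE, adjusted p = 0.293), or 0.22 under library totals alone.

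Of the M-band genes, Myom1 passed. Myom1, myomesin-1, the main cross-linker of thick filaments, had 1284, 890.3 and 806 CPM in sepsis, against 1153, 1218, 1387, 1276 and 1404 CPM in controls. Sepsis library 1 lay among the controls, and the log2 fold change of -0.37 ± 0.14 (SE, adjusted p = 0.0450) became 0.04 under library totals alone. Its call ended in 12 of the 15 settings, with adjusted p from 0.000950 to 0.824. Its locus overlaps Myl12a on the opposite strand, which held 16227 reads over all libraries, beside 33167 for Myom1, so the value is uncertain. Myom2, the M-protein of fast fibres, had 569, 442 and 135 CPM in sepsis, against 625.4, 616, 671, 661 and 636 CPM in controls. All septic libraries were below all controls, yet the spread among them left the log2 fold change at -0.75 ± 0.39 (SE, adjusted p = 0.151). Myom3 had 28.5, 37.8 and 9.82 CPM in sepsis and 25.3 to 42.5 CPM in controls, and Obsl1, an obscurin-like linker, had 3.20 to 5.85 CPM in sepsis and 2.89 to 6.59 CPM in controls, and the groups of both overlapped.

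The balance within isoform pairs was then measured as the share of the first gene in the reads of both, which does not depend on how libraries are scaled. Of 8 slow and fast pairs, 5 had every septic share above every control share. For the levels of single genes, the groups did not overlap in 47.5% of all genes tested. The fast gene of each pair had fallen, so the shares partly restate those falls. Tpm3 made up 2.28%, 2.41% and 2.13% of the Tpm3 and Tpm1 reads in sepsis, against 0.488%, 0.403%, 0.530%, 0.438% and 0.320% in controls. Tnnc1 averaged 0.722% ± 0.273 of the troponin C reads in sepsis (SD, n = 3) and 0.250% ± 0.0754 in controls (SD, n = 5). In both of these pairs the slow gene held a small share of the reads, in sepsis and in controls.

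The share of Myoz2 in Myoz2 and Myoz1 averaged 16.1% ± 5.75 in sepsis (SD, n = 3) and 4.44% ± 0.748 in controls (SD, n = 5). That of Mybpc1 in Mybpc1 and Mybpc2 averaged 24.3% ± 6.93 in sepsis and 14.0% ± 0.643 in controls, and that of Myl2 in Myl2 and Mylpf 1.29% ± 0.407 in sepsis and 0.638% ± 0.144 in controls. Without sepsis library 1 the difference in the Myl2 share was 0.423 percentage points, against 0.654 with all libraries. In 3 pairs the groups overlapped: troponin I at 0.274% ± 0.0264 in sepsis and 0.194% ± 0.0604 in controls, troponin T at 0.573% ± 0.0644 in sepsis and 0.461% ± 0.103 in controls, and the essential light chains at 3.37% ± 0.337 in sepsis and 2.49% ± 0.512 in controls. Outside the slow and fast pairs, Actn2 took 14.6% ± 4.40 of the alpha-actinin reads in sepsis and 6.24% ± 1.08 in controls, and Actc1 took 0.289% ± 0.0226 of the sarcomeric actin reads in sepsis and 1.21% ± 0.420 in controls, the reverse direction.

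With 3 against 5 libraries there are 56 ways to split the samples. A two-sided exact permutation test on the absolute difference gave its smallest possible p, 0.0179, for the 5 slow and fast pairs that were apart and for alpha-actinin, or 0.0298 after Benjamini-Hochberg adjustment over the 10 pairs. Sarcomeric actin had an exact p of 0.0357 and an adjusted p of 0.0510. Troponin I and the essential light chains had adjusted exact p of 0.0794 and troponin T of 0.179. When the two-sided exact p was taken as 2 times the smaller tail, all 7 separated pairs had an adjusted p of 0.0510 and none passed. The choice between these definitions was made after both had been computed, so the adjusted calls for the pairs depend on it.

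**Figure D2:**
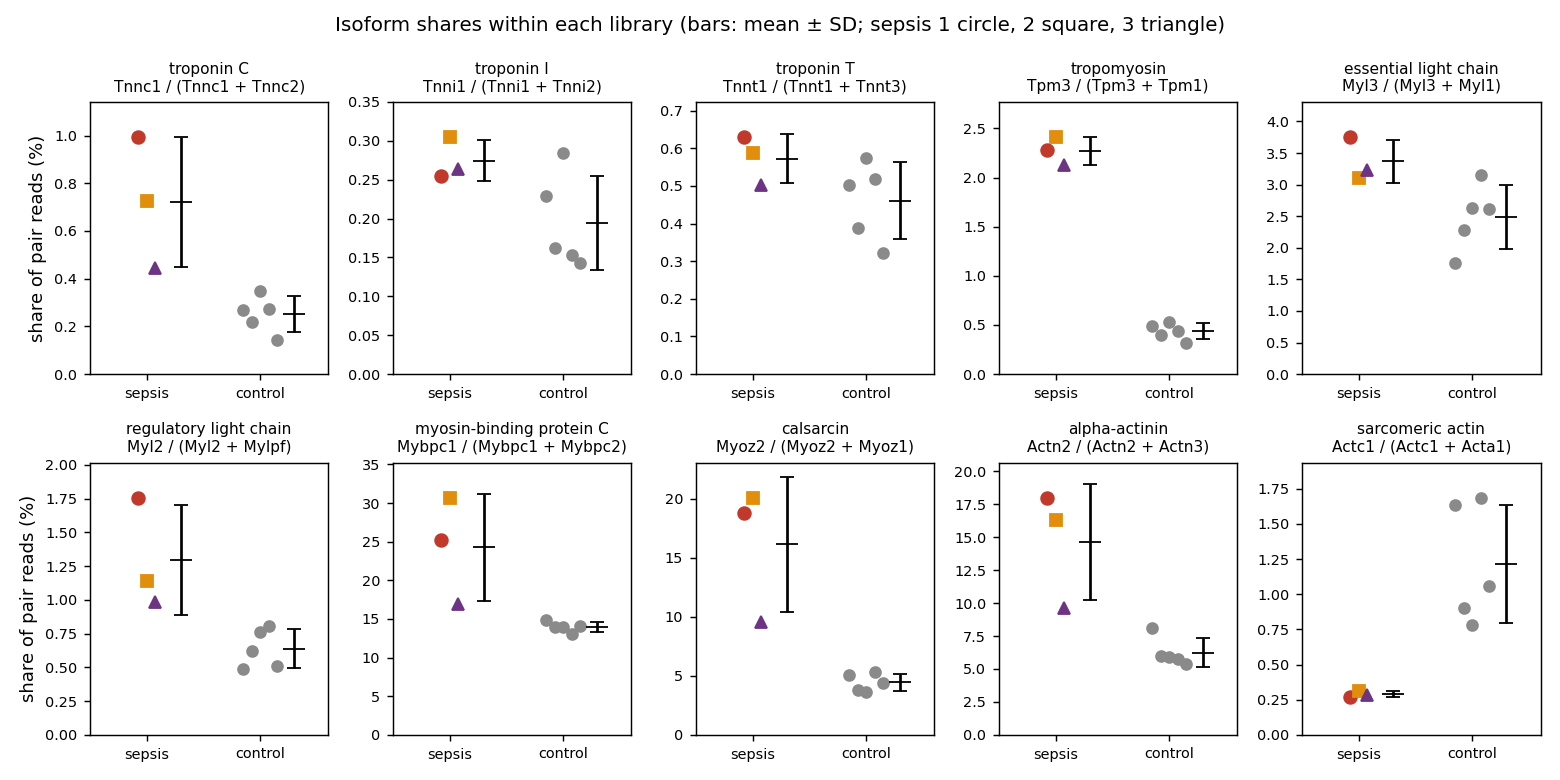
Share of the first-named gene in the reads of each of the 10 isoform pairs, in percent, with 1 point per library and sepsis left of control. Septic shares lie above all control shares for 5 slow and fast pairs and alpha-actinin, below them for sarcomeric actin, and overlap for troponin I, troponin T and the essential light chains.

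The septic libraries did not carry these changes equally. In 11 of the 46 genes (23.9%), sepsis library 3 had less than 0.5 of the mean level of sepsis libraries 1 and 2, against 7.27% of all genes tested. These were Lmod3, Mylk4, Pdlim3, Tcap, Myom2, Myom3, Ldb3, Synpo2, Myot, Myoz2 and Tmod4. The ratio was lowest in Lmod3 at 0.107 and Mylk4 at 0.113. Library 3 lay below all the other libraries in 20 of the 46 genes (43.5%), against 22.7% of all genes tested. In contrast it was over 2-fold above the mean of sepsis libraries 1 and 2 for Mybph and Myoz3. Sepsis library 1 was the lowest septic library for 0 of the 46 genes, against 29.7% of all genes tested.

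Median deviations from the control mean show where the libraries parted. For the fast isoforms the medians were -1.24, -1.62 and -1.29 in sepsis libraries 1, 2 and 3, on the log2 scale. For the Z-disc genes they were 0.07, -0.08 and -0.76 in the same order, with library 3 alone well below 0. Without library 3 the Z-disc median log2 fold change was 0.01, with 6 genes higher and 7 lower. Over the 46 genes, 8 then rose and 26 fell. Of the 9810 genes of the main test, 9799 were tested without library 3, with 2193 higher and 2230 lower. Myl2 and Myom1 no longer passed, while Pdlim3, Myot, Des and Mybpc1 passed as higher and Myom2 as lower, at -0.34 with an adjusted p of 0.0182 (0.0182 to 0.514 over the settings). Without sepsis library 1, 2 of the 46 rose and 28 fell, and without control library 2 or 3, 2 rose and 25 fell. Among the genes of the main test, 2247 of 9810 were higher and 2306 lower without sepsis library 1. The counts were 2207 and 2220 of 9703 without control library 2, and 2240 and 2245 of 9681 without control library 3.

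**Figure D3:**
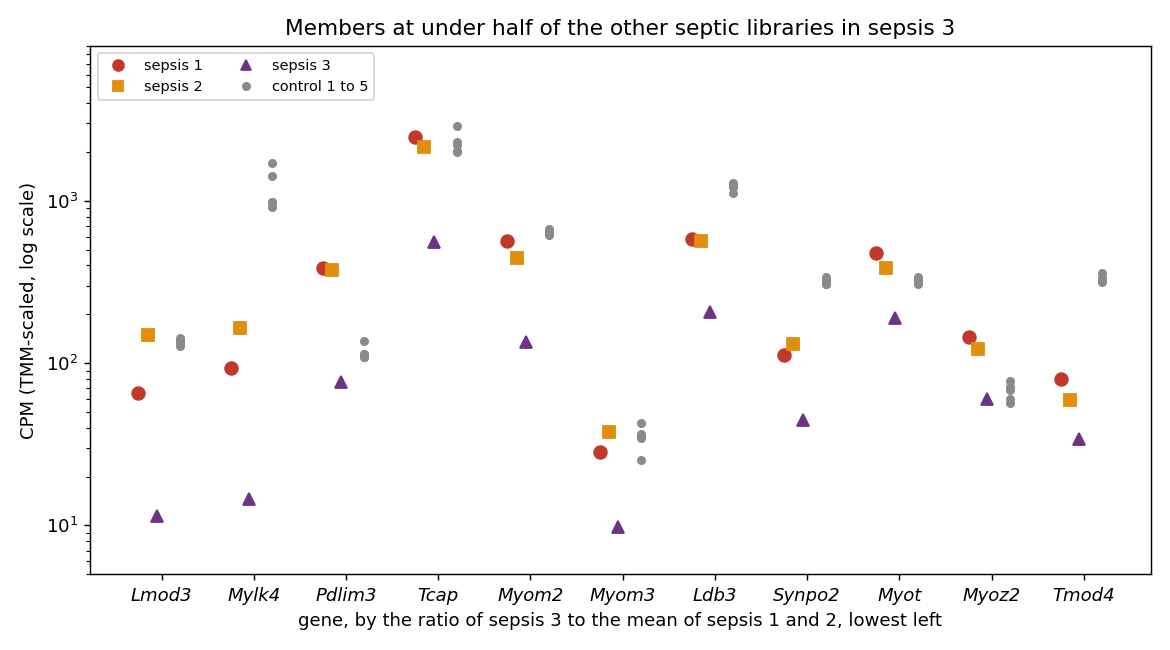
Levels in each library of the 11 sarcomere genes in which sepsis library 3 had less than 0.5 of the mean of sepsis libraries 1 and 2. The genes were picked by that rule, so library 3 is low in all of them. Mybph and Myoz3, in which library 3 was over 2-fold above that mean, are not shown. Sepsis library 3 lies well below libraries 1 and 2 for genes such as Lmod3, Mylk4, Pdlim3 and Tcap.

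**Figure D4:**
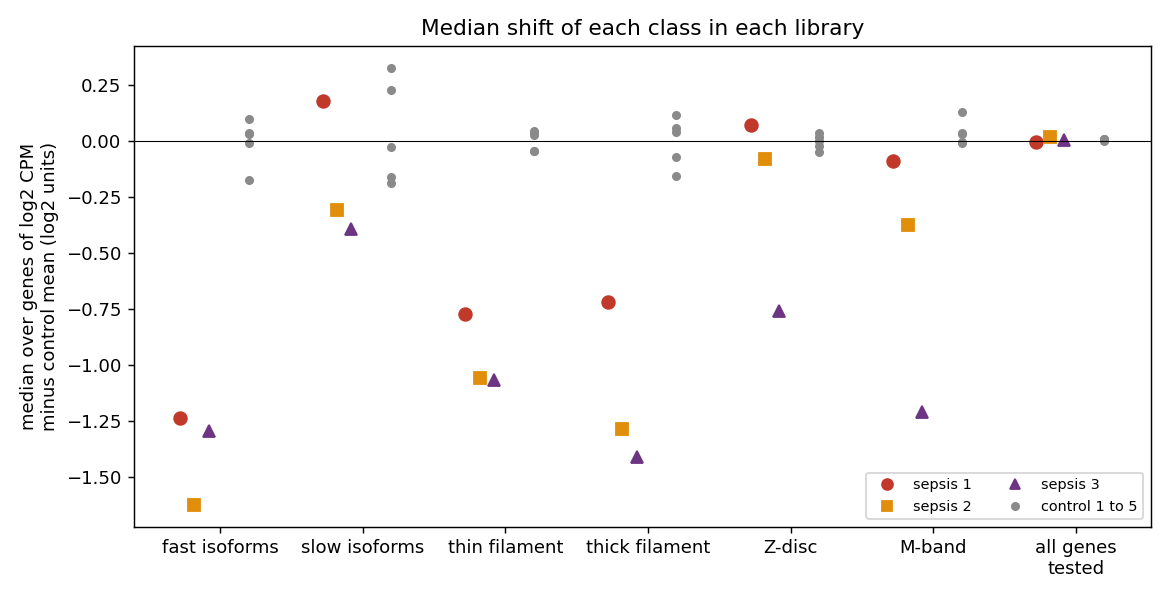
Median log2 deviation from the control mean over the genes of each class, 1 point per library with sepsis left of control. Fast isoforms lie between -1.62 and -1.24 in the 3 septic libraries, while the Z-disc median is near 0 in libraries 1 and 2 and -0.76 in library 3.

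Other muscle genes, of the sarcomere or linked to it, from a list of 51 of which 46 were tested, were divided between rises and falls. The list was chosen with earlier results of these data known. Of the listed genes tested, 16 rose, 13 fell and 17 did not pass, and their median log2 fold change was -0.08. Over all genes tested, 25.2% were higher and 25.2% lower. The rises with the smallest p were Flnc, the filamin that crosslinks actin at the Z-disc, Xirp1, its partner Xin, Hspb7, a small heat shock protein, Trim63, the MuRF1 ubiquitin ligase of the M-band, and Nrap, a protein of myofibril assembly. Trim63 rose 16.7-fold, with 5916, 3480.0 and 8196 CPM in sepsis, against 241, 299, 437, 508 and 271 CPM in controls. Nrap averaged 1725 ± 584 CPM in sepsis (SD, n = 3) and 639 ± 48.3 CPM in controls (SD, n = 5).

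The falls with the smallest p were Ckm, the muscle creatine kinase bound at the M-band, Cacna1s, the voltage sensor of excitation-contraction coupling, Capn3, a calpain held by titin, Smyd1, a methyltransferase of sarcomere assembly, and Kbtbd13, a thin filament regulator. Smyd1, whose role with Unc45b in myosin folding is known from zebrafish, had 76.9, 71.0 and 31.3 CPM in sepsis and 319 to 368 CPM in controls, a 5.74-fold fall. Capn3 fell 3.84-fold, and sepsis library 3 was the lowest library in both genes.

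The fast myosin heavy chains, the motors of the thick filament, fell. Myh4, the fastest form, had 40918, 28908 and 46871 CPM in sepsis, against 52109.7, 57655, 58217, 59405 and 60502 CPM in controls, at -0.57 ± 0.14 (log2, SE, adjusted p = 0.00389). Myh2 averaged 571 ± 317 CPM in sepsis (SD, n = 3) and 1631 ± 103 CPM in controls (SD, n = 5), and Myh1 1012 ± 174 CPM in sepsis and 1628 ± 223 CPM in controls. Both fell, at -1.51 and -0.69 on the log2 scale. Slow Myh7 overlapped between the groups, with 114, 71.8 and 44.7 CPM in sepsis and 63.7 to 102 CPM in controls, at -0.06 ± 0.28 (log2, SE, adjusted p = 0.875).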

How the data were processed

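Libraries were made from 25 ng of total RNA with a QuantSeq 3′ mRNA kit, per the labels' protocols. The authors deposited a table of raw read counts per gene for 8 libraries, on GRCm39 per the submitters' processing notes. The counting tool, its annotation and its strand setting are not given in the sources used here. Depth was 3086277 to 4016329 reads, and PCR duplicates cannot be told from molecules. Genes were kept by edgeR's filterByExpr (count minimum 10, total minimum 15), which left 9810 of 25655. Sepsis was compared with control by edgeR 4.0.16 (TMM factors, quasi-likelihood F test, Benjamini-Hochberg adjustment over all genes tested, threshold 0.05) in R 4.3.3. Standard errors were derived from the F statistic. Log2 deviations of single libraries use a prior count of 2. Pair shares were compared with exact permutation tests in SciPy 1.17.1. The edgeR fit was tested on simulated counts in which few genes changed, equally up and down, unlike the real data.

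The 46 genes and the other lists were chosen with earlier results of these data known. Per-library values are given for genes of the 10 isoform pairs, for the 3 largest rises and falls past the threshold in each class, for genes that did not pass where the libraries part, and for myosin heavy chains. Of the other sarcomere genes, the 5 with the smallest p in each direction are named. Marker lists for adipocytes (0 of 3 tested changed), endothelium (3 of 6 higher, 2 lower), Schwann cells (3 of 5 lower), satellite cells (2 of 3 lower) and erythroid cells (1 of 4 lower) were also counted. Overlapping genes were looked up by name in GENCODE M21 (GRCm38): 12 of the 46 overlap an opposite-strand gene, 3 of them (Tmod1, Mybph and Myom1) one with over 1% of their reads. The partners of Neb, Mybpc2, Ttn, Unc45b and Des have no row among the deposited counts, so their reads could not be judged. Promoters came from RefSeq (GRCm38.p6), so their coordinates are not those of the counting build. Alternatives were DESeq2 1.42.0, limma 3.58.1, other scalings, no filter, a replicate block and leaving out each library.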

Additional observations from a re-analysis of the deposited data

Results flagged for a closer look

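In the controls, 3 of 56 sets of 5 values had 1 library far from the others by Dixon's test, which chance does in about 1 set in 20. All 3 were in control library 1. Tnnt3 was lowest there at 23110.4 CPM, against 27121 to 28349 CPM in the other controls, and its fall held without that library. Pdlim3 was highest there at 136 CPM, against 109.6 to 114 CPM in the other controls. The share of Actn2 in the alpha-actinin reads was highest there at 8.12%, against 5.40% to 5.99% in the other controls. That library also had the highest mitochondrial share of the reads, 26.7%, and the part of this in the 3 values was not tested.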

How the results depend on the processing

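Of the 31 genes called, 26 kept their direction and their call in all 15 alternative settings, 24 of them lower and 2 higher (Lmod2 and Pdlim5). The other 5, Neb, Myl2, Actn2, Myoz2 and Myom1, lost the call in at least 1. Library totals alone moved the median of all genes tested to 0.43 and gave 4256 genes higher and 1387 lower, 8 of the 46 higher, and medians of -0.60 (thick filament), -0.37 (thin filament), -1.01 (fast isoforms), 0.32 (slow isoforms), 0.019 (Z-disc), 0.0089 (M-band) and -0.41 (all 46). The sign turned to 0.18 in Tnni1, 0.019 in Tcap, 0.22 in Mypn, 0.035 in Myom1 and 0.24 in Obsl1, which follows from that shift. The thin filament median was -0.98 with limma voom. With reads of nuclear genes only, the read share of the 46 changed by -12.8 (in percent of reads), against -8.33 with all reads.

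Leaving out 1 library at a time gave 2 to 8 of the 46 higher, beside 2207 to 2533 of all genes tested in each fit. The differences were 0.687 to 1.04 percentage points in the essential light chain share. They were -1.03 to -0.807 in the sarcomeric actin share, whose exact p ranged from 0.0286 to 0.0952. The sign turned within the range of Tnnc1 (-0.31 to 0.24), Mylk2 (-0.088 to 0.50), Mybpc1 (-0.035 to 0.34), Tcap (-0.77 to 0.015), Myot (-0.17 to 0.41), Mypn (-0.36 to 0.0064) and Des (-0.033 to 0.37), none of which was called with all libraries, though Mylk2, Mybpc1, Myot and Des each passed without 1 septic library. The cause of these changes was not tested.

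The labels number replicates in both groups but do not say whether the numbers pair the samples. Same-numbered libraries did not deviate together (correlations of -0.0857, -0.0141 and -0.0195). With only 3 libraries per group, these values cannot settle whether the samples are paired. The fit with a replicate block used libraries 1 to 3 of both groups and so also left out controls 4 and 5, and the parts of these choices were not tested. It called 27 of the 46 (3 higher, 24 lower), Neb, Myl2, Actn2 and Myom1 lost their calls, the thin filament median was -1.01 and Tnnc1 was at -0.059. Calls were also fewer over all genes. Of the 9810 genes of the main test, 9617 were tested in the block fit. Of those, 1786 were higher and 1771 lower, against 2475 and 2468 in the main fit. Depth limits the rarest genes: the least abundant of the 46 had 131 reads over all libraries.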
